A study of Mus musculus with 16 samples.

Results

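The antioxidant response of C2C12 cells was followed through 10 genes: Nfe2l2, which encodes the transcription factor NRF2; its well-known targets Gclc, Gclm, Txnrd1, Srxn1, Nqo1, Hmox1, Gsta4 and Gstm1; and the aldehyde dehydrogenase Aldh3a1. They were selected by gene symbol, and Aldh3a1 was chosen by its high level in Fam134bKO myotubes, seen in these same samples. All 10 were found among the 31053 genes of the table, and all 10 were among the 10767 genes tested. The mRNA of 16 samples was sequenced in 4 groups of 4: WT myoblasts, WT myotubes, Fam134bKO myoblasts and Fam134bKO myotubes. C2C12 is a mouse myoblast line that fuses into myotubes once the culture is confluent. Every sample was grown in DMEM with 10% serum. The Fam134bKO line carries a lentiviral CRISPR–Cas9 edit of Fam134b, a receptor for autophagy of the endoplasmic reticulum. After transduction the line was selected with antibiotics, which the WT cells are not described as receiving. The sources used here do not say whether it is a single clone, so the edit, the selection and the history of the line cannot be told apart. Samples of a group are labelled biological replicates, and p-values measure only the spread between them. Since Aldh3a1 was chosen by its level in myotubes, every value of the 10 genes in Fam134bKO against WT myotubes is given as a description, with no p-value. The same holds for Aldh3a1 in each comparison that uses myotubes.

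NRF2 is held in the cytoplasm and marked for degradation by KEAP1, an adaptor of the CUL3 ubiquitin ligase. When oxidants or electrophiles modify KEAP1, or when the autophagy receptor p62 (Sqstm1) binds it, NRF2 accumulates, pairs with a small MAF protein and binds antioxidant response elements, where BACH1 otherwise represses. Its targets make and recycle glutathione and thioredoxin, reduce quinones, degrade heme, conjugate electrophiles and supply NADPH. Because NRF2 is controlled mostly as a protein, the mRNA of Nfe2l2 need not follow its activity. Aldh3a1 oxidizes aldehydes formed by lipid peroxidation, is abundant in the cornea, and belongs to the gene battery of the aryl hydrocarbon receptor together with Nqo1.

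RefSeq promoter windows, from 250 bases before to 50 bases after a gene's start (assembly GRCm38.p6, the build of the submitters' mm10), were at hand for 6 of the 10 genes: Nfe2l2, Gclm, Txnrd1, Srxn1, Nqo1 and Gstm1, with 9 windows in all. The core of the antioxidant response element, TGACNNNGC, was searched on both strands. It was found in 4 of the 9 windows, 1 each of Nfe2l2, Gclm, Txnrd1 and Srxn1, while 12.4% of all 32851 windows in the table held it. The 4 matches are shown because they hold the core of the element that NRF2 is known to bind. Whether NRF2 binds at these 4 places was not tested. Capitals mark the core and each line is written 5′ to 3′ on the strand of the match.
Nfe2l2, chr2:75704885-75704913, minus strand: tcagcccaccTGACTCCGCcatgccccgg
Gclm, chr3:122245413-122245441, minus strand: tcgtgagagtTGACGGTGCgcccgggagc
Txnrd1, chr10:82859104-82859132, minus strand: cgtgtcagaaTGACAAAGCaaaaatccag
Srxn1, chr2:152105542-152105570, minus strand: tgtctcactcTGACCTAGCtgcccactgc
Counted from the gene's start, the first base of the core in the window lies at -240 in Nfe2l2, at -134 in Gclm, at -92 from an internal start of Txnrd1 and at 28 in Srxn1. By GENCODE M21 annotation the Srxn1 match falls in the untranslated part of its first exon, the Txnrd1 match in an intron of longer transcripts, the Nfe2l2 match in an exon of the divergent transcript E030042O20Rik, and the Gclm match in no transcript. The windows of Nqo1 and Gstm1 did not hold these letters. All windows begin 250 bases before a start, so elements farther upstream were not searched. The xenobiotic response element core TNGCGTG, the motif of the aryl hydrocarbon receptor, is in 5.07% of all windows and in 0 of these 9. Gclc, Hmox1, Gsta4 and Aldh3a1 had no window.

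The samples held 1484750 to 3287461 reads counted on genes, and the 2 shallowest samples were Fam134bKO myotubes 2 and 4. Each value below is a normalized count, the read count of a gene divided by a factor of the sample, and differences are log2 fold changes of the normalized count plus 1. The 10 genes rested on at least 25 reads in each sample, with a lowest count of 35 reads for Aldh3a1. The targeted gene Fam134b averaged 207 in WT myoblasts against 27.5 in Fam134bKO myoblasts, and 232 against 41.8 in myotubes. The myogenic state of the groups also differed. The summed level of 6 myotube markers was 630 to 1059 in WT myoblasts and 8.34 to 16.6 in Fam134bKO myoblasts, and in myotubes it was 14218 to 20326 in WT and 7774 to 10790 in Fam134bKO. The summed level of 5 myoblast markers was 1002 to 1485 in WT and 262 to 366 in Fam134bKO myoblasts, and higher in myotubes, at 2697 to 3231 in WT and 889 to 1192 in Fam134bKO. Of the 5, Myod1, Des and Cdh15 were lower in each Fam134bKO myoblast sample than in any WT one, Myf5 was higher (107 to 118 against 59.8 to 82.0), and Pax7 had at most 5 reads in any sample. The part of these differences in the results below was not tested. In bulk samples, fewer cells of a type and less RNA per cell cannot be told apart. The chosen markers of macrophages, endothelium, epithelium and cornea, adipocytes and hepatocytes summed to at most 24.2 in any sample. Krt14, a keratin gene not among them, averaged 137 in WT myoblasts and 1096 in Fam134bKO myoblasts. In myotubes Krt14 averaged 47.6 in WT and 106 in Fam134bKO. Of 4 fibroblast genes, Col1a1 was abundant in all samples (2256 to 24700), while Pdgfra was at most at 14.4 and Lum at 2.70, and Dcn was at most at 5.25 in myoblasts and at 17.1 to 203 in myotubes.

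In Fam134bKO myoblasts 6 of the 10 genes were higher than in WT myoblasts and none was lower (limma, Benjamini-Hochberg adjusted p under 0.05 over all 10767 genes). The 6 were Hmox1, Gsta4, Gstm1, Aldh3a1, Nqo1 and Srxn1, and in each of them all 4 Fam134bKO samples lay above all 4 WT samples. How many of all genes tested were separated in this way was not counted. Of all genes tested, 7.26% were called higher and 8.50% lower in this comparison. The median log2 fold change of the 10 genes was 0.88, against -0.01 over all genes tested. Nfe2l2, Gclc, Gclm and Txnrd1 did not pass the test.

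**Figure D1:**
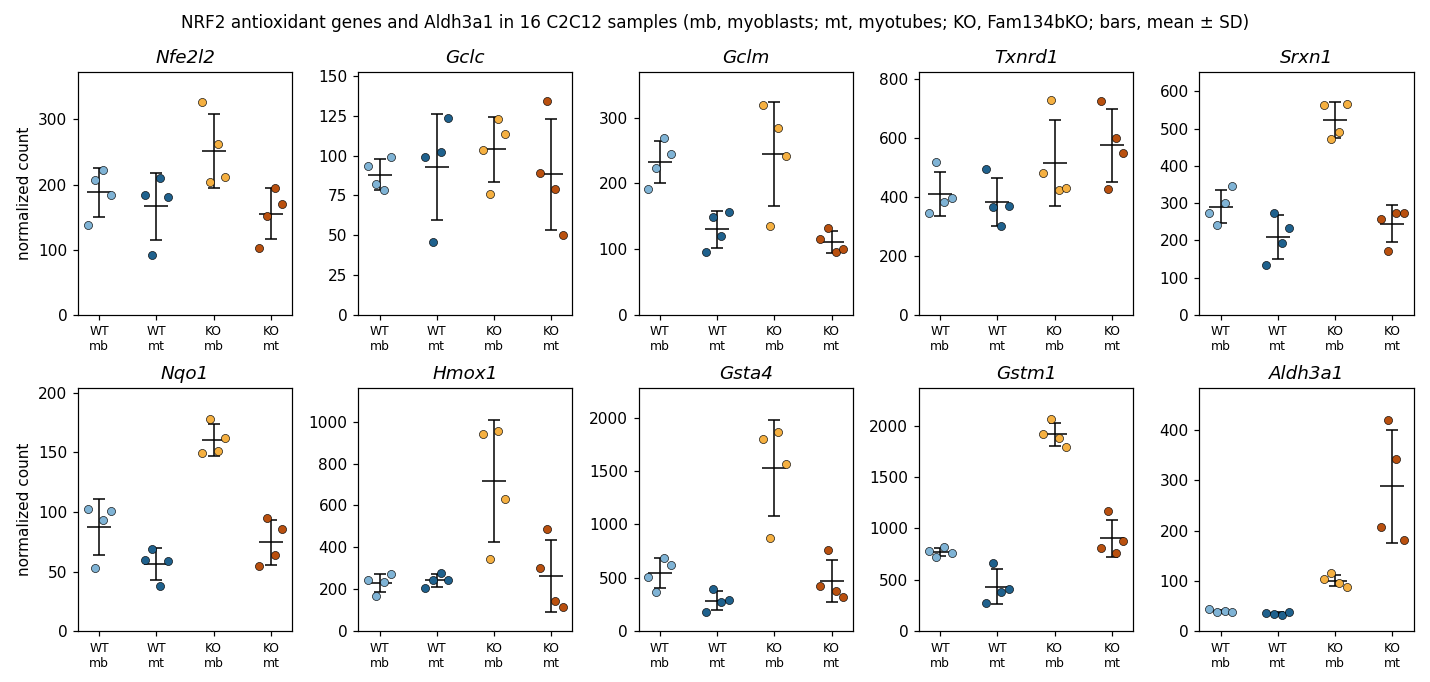
Normalized count (vertical axes, from 0) of each of the 10 genes in the 16 samples, grouped as WT myoblasts, WT myotubes, Fam134bKO myoblasts and Fam134bKO myotubes; points are samples and bars are the mean ± SD of 4. The Fam134bKO myoblasts stand above WT myoblasts without overlap in Srxn1, Nqo1, Hmox1, Gsta4, Gstm1 and Aldh3a1, and the Fam134bKO myotubes are the highest group for Aldh3a1, at 182 to 420.

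Hmox1 encodes heme oxygenase, which opens heme into biliverdin, carbon monoxide and iron. Its normalized counts were 244, 167, 232 and 270 in WT myoblasts 1 to 4 and 942, 342, 953 and 632 in Fam134bKO myoblasts 1 to 4. All Fam134bKO samples were higher, and sample 2 stood well below the other 3. On the log2 scale Hmox1 was 1.56 higher (standard error, SE, 0.352; adjusted p = 0.00323), a 2.95-fold difference. With each sample left out in turn it lay between 1.38 and 1.88.

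The glutathione S-transferases join glutathione to electrophiles, and Gsta4 is the one best known for 4-hydroxynonenal, a product of lipid peroxidation. Gsta4 was at 508, 366, 687 and 620 in WT myoblasts and at 1800, 876, 1867 and 1563 in Fam134bKO myoblasts. The groups did not overlap, and Fam134bKO sample 2 was again the lowest of its group. The difference was 1.46 on the log2 scale (SE 0.283, adjusted p = 0.000743), or 2.76-fold. Gstm1, a mu-class transferase, was at 784, 720, 815 and 758 in WT and at 1920, 2062, 1883 and 1797 in Fam134bKO myoblasts. Both groups were tight, and the gap between them was wide. For Gstm1 the log2 fold change was 1.31 (SE 0.203, adjusted p = 6.15e-05), or 2.49-fold. Of the 31-base stretches in the last 500 bases of Gstm1 transcripts, 31.1% also occur in another gene, so reads of mu-class paralogs may be split or shared between them.

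Nqo1 reduces quinones directly to hydroquinones and is a widely used marker of NRF2 activity. It was at 102, 53.0, 93.1 and 101 in WT myoblasts and at 150, 178, 151 and 162 in Fam134bKO myoblasts. WT sample 2 lay apart from the other 3, below them. Nqo1 had a log2 fold change of 0.91 (SE 0.240, adjusted p = 0.0105), and without WT myoblasts 2 it was 0.69 and no longer passed the test (adjusted p = 0.0534). Srxn1, sulfiredoxin, repairs over-oxidized peroxiredoxins. It was at 272, 241, 300.2 and 346 in WT and at 563, 472, 491 and 565 in Fam134bKO myoblasts, with no overlap. Its log2 fold change was 0.86 (SE 0.202, adjusted p = 0.00451).

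Aldh3a1 was chosen by its myotube values, and its comparison in myoblasts was tested. Earlier results of these data were known at that choice. The limma fit also took the spread from all 16 samples, myotubes included, so the test is not fully independent of the choice. The 4 WT myoblast samples were at 44.3, 37.6, 39.0 and 38.3, and the 4 Fam134bKO samples at 103, 115, 95.4 and 87.6. The groups were tight and far apart. They differed by a log2 fold change of 1.31 (SE 0.226, 95% confidence interval 0.84 to 1.78, adjusted p = 0.000227), or 2.47-fold. A two-sided exact permutation test of the 8 log2 values gave p = 0.0286, which is the smallest value possible with 4 against 4. With any of the 16 samples left out, the log2 fold change stayed between 1.24 and 1.37.

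The genes that did not pass were the transcription factor itself, both subunits of glutamate–cysteine ligase and thioredoxin reductase. Nfe2l2 was at 137, 207, 222 and 184 in WT and at 327, 204, 262 and 211 in Fam134bKO myoblasts, with overlapping groups. Its log2 fold change was 0.41, with a 95% confidence interval of -0.10 to 0.93 (adjusted p = 0.305). Gclc, the catalytic subunit of the enzyme that commits cysteine to glutathione, was at 93.2, 82.0, 78.1 and 98.9 in WT and at 103, 75.5, 123 and 113 in Fam134bKO myoblasts. Its groups overlapped, with a log2 fold change of 0.22 (95% confidence interval -0.38 to 0.82). Gclm, the modifier subunit, averaged 232 ± 32.4 (SD, n = 4) in WT and 245 ± 79.6 (SD, n = 4) in Fam134bKO myoblasts, where sample 2 was at 135 and the other 3 at 241 to 318. Its log2 fold change was 0.02 (95% confidence interval -0.46 to 0.49). Txnrd1, which keeps thioredoxin reduced with NADPH, was at 346, 518, 382 and 398 in WT and at 481, 729, 422 and 430 in Fam134bKO myoblasts. The groups of Txnrd1 overlapped, with a log2 fold change of 0.30 (95% confidence interval -0.12 to 0.73).

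**Figure D2:**
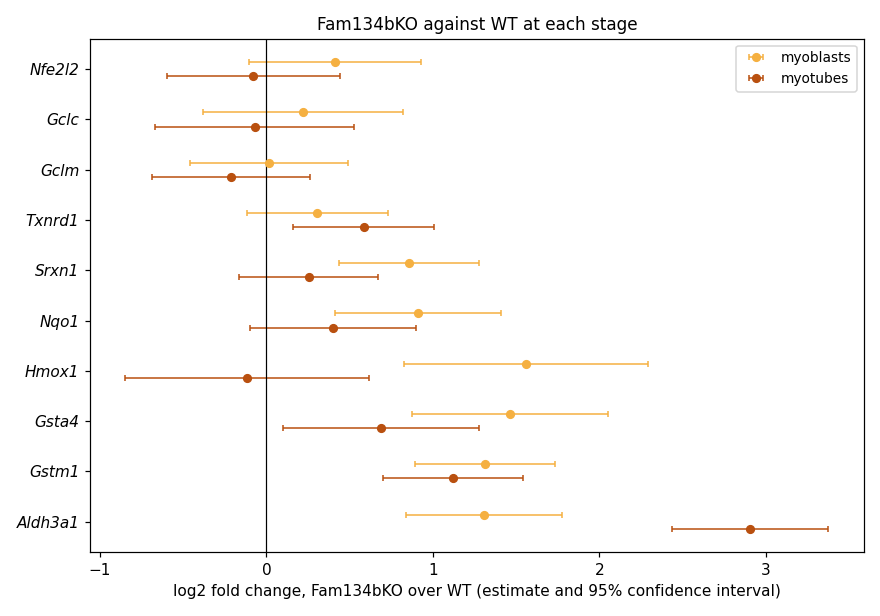
Log2 fold change of Fam134bKO over WT (horizontal axis) for each of the 10 genes, in myoblasts and in myotubes; points are estimates and lines are 95% confidence intervals. In myoblasts the intervals of Srxn1, Nqo1, Hmox1, Gsta4, Gstm1 and Aldh3a1 lie above 0, and in myotubes Aldh3a1 stands apart at 2.91 while Hmox1 lies at -0.12.

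In myotubes Aldh3a1 was the gene with the widest gap between genotypes among the 10. WT myotubes were at 36.3, 34.2, 32.5 and 38.6, and Fam134bKO myotubes at 207, 420, 342 and 182. The lowest Fam134bKO sample was several times the highest WT sample, and the Fam134bKO samples differed among themselves far more than the WT samples did. This was a log2 fold change of 2.91 (SE 0.226), or 7.49-fold. Ordered by mean, the 4 groups read 35.4 ± 2.64 in WT myotubes, 39.8 ± 3.04 in WT myoblasts, 100.2 ± 11.5 in Fam134bKO myoblasts and 288 ± 113 in Fam134bKO myotubes (SD, n = 4 each). The neighbours WT myotubes and WT myoblasts overlapped, and the other neighbours did not. Without the 2 shallowest samples, which were the highest and the lowest of the Fam134bKO myotubes, the 2 that remained were at 207 and 342.

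The other 9 genes were closer between the genotypes in myotubes. Gstm1 was at 269, 667, 376 and 414 in WT and at 805, 1166, 763 and 877 in Fam134bKO myotubes, without overlap, with a log2 fold change of 1.12. Txnrd1 was at 495, 366, 303 and 369 in WT and at 725, 428, 602 and 550 in Fam134bKO myotubes, with overlap and a log2 fold change of 0.58. Gsta4 had a log2 fold change of 0.69 (SE 0.283), Nqo1 of 0.40 and Srxn1 of 0.25. Hmox1 was at 204, 246, 276 and 243 in WT myotubes and at 302, 489, 141 and 116 in Fam134bKO myotubes. The WT samples of Hmox1 were tight, and the Fam134bKO samples lay on both sides of them, for a log2 fold change of -0.12. Nfe2l2, Gclc and Gclm were at -0.08, -0.07 and -0.21.

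From WT myoblasts to WT myotubes, 3 of the 9 genes other than Aldh3a1 fell and none rose, where 9.16% of all genes tested were called lower and 13.8% higher. The 3 were Gstm1 (log2 fold change -0.91, adjusted p = 0.00282), Gclm (-0.85, adjusted p = 0.0109) and Gsta4 (-0.95, adjusted p = 0.0196). Gclm was at 192 to 268 in WT myoblasts and at most at 157 in WT myotubes, without overlap. Srxn1 (-0.51, adjusted p = 0.0733) and Nqo1 (-0.61, adjusted p = 0.0717) did not pass, and neither did Nfe2l2, Gclc, Txnrd1 and Hmox1. The count rested on single samples: it was 1, Gstm1 alone, without WT myotubes 1, and 5 without WT myotubes 2, with Srxn1 and Nqo1 added. It was also 5, with the same 2 added, without the 2 shallowest samples. Calls over all genes moved the same way. They were 2474 with all 16 samples, 1523 without WT myotubes 1, 2922 without WT myotubes 2 and 3260 without the 2 shallowest samples. The call of Gsta4 was lost as well without WT myoblasts 3 (adjusted p = 0.0731) or 4 (adjusted p = 0.0617), Nqo1 passed without WT myoblasts 2 (adjusted p = 0.0162), and Srxn1 passed without Fam134bKO myotubes 2 (adjusted p = 0.0453). Aldh3a1 had a log2 fold change of -0.16 (SE 0.226), given as a description.

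From Fam134bKO myoblasts to Fam134bKO myotubes, 7 of the 9 genes fell and none rose, where 16.1% of all genes tested were called lower and 17.3% higher. Gsta4 fell most, with a log2 fold change of -1.72 (SE 0.283, adjusted p = 8.3e-05), from 876 to 1867 in myoblasts to 322 to 756 in myotubes. Hmox1 followed at -1.58 (SE 0.352, adjusted p = 0.00166), with the highest myotube sample above the lowest myoblast sample. Nqo1 was at -1.12, Srxn1 at -1.11, Gstm1 at -1.10 and Gclm at -1.08, each with an adjusted p of at most 0.00113. Nfe2l2 fell by 0.71 on the log2 scale (adjusted p = 0.0333), and this call was lost without the 2 shallowest samples (adjusted p = 0.0522). It was also lost without Fam134bKO myoblasts 1 or 3 or without Fam134bKO myotubes 1, with adjusted p-values of 0.121, 0.0712 and 0.125. Gclc (-0.30) and Txnrd1 (0.17) did not pass the test. Aldh3a1 moved the other way, from 87.6 to 115 in myoblasts to 182 to 420 in myotubes, a log2 fold change of 1.43 given as a description.

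**Figure D3:**
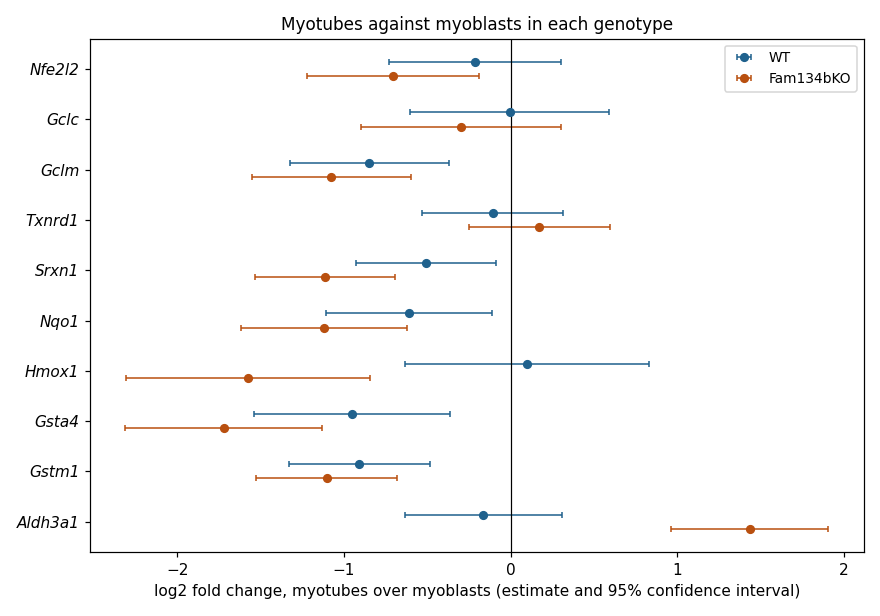
Log2 fold change of myotubes over myoblasts (horizontal axis) in WT and in Fam134bKO cells for each of the 10 genes; points are estimates and lines are 95% confidence intervals. In Fam134bKO cells 7 genes have intervals below 0 and Aldh3a1 lies at 1.43, while in WT cells Aldh3a1 lies at -0.16.

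The comparisons share groups: Fam134bKO myoblasts are the high group against WT and the starting group of differentiation in Fam134bKO cells, so the rise in one and the fall in the other are not separate evidence. Whether the change with differentiation differed between genotypes was tested by the interaction. None of the 9 genes was called, where 1.97% of all genes tested were called higher and 1.48% lower. There were 2 of 9 with an unadjusted p under 0.05, Hmox1 and Srxn1. Hmox1 came closest, with a log2 interaction of -1.67 (SE 0.498, adjusted p = 0.0678). It passed without Fam134bKO myoblasts 2 (-1.99, adjusted p = 0.0173), without Fam134bKO myotubes 2 (-2.05, adjusted p = 0.00701) and without the 2 shallowest samples (-1.78, adjusted p = 0.0221). The interaction of Aldh3a1 was 1.60 (SE 0.320), a description.

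Within the groups the genes did not vary together as 1 block. Over the 16 deviations from the group means, Gsta4 followed Gclm (r = 0.829) and Hmox1 (r = 0.819) and ran against Txnrd1 (r = -0.741). These values describe deviations that share libraries and depth. In Fam134bKO myoblasts 2, Hmox1, Gclm and Gsta4 were 0.95, 0.78 and 0.74 below their group means on the log2 scale, and Txnrd1 was 0.54 above. The whole library of that sample deviated by 0.440 in root mean square, against 0.260 to 0.312 in the other 3 of its group. Fam134bKO myotubes 2, with a deviation of 0.691, was highest of its group in Hmox1, Gsta4, Gstm1, Gclm, Gclc, Nqo1 and Aldh3a1 and lowest in Srxn1 and Txnrd1. With Fam134bKO myoblasts 2 left out, 6 of the 10 genes were still called higher in Fam134bKO myoblasts.

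**Figure D4:**
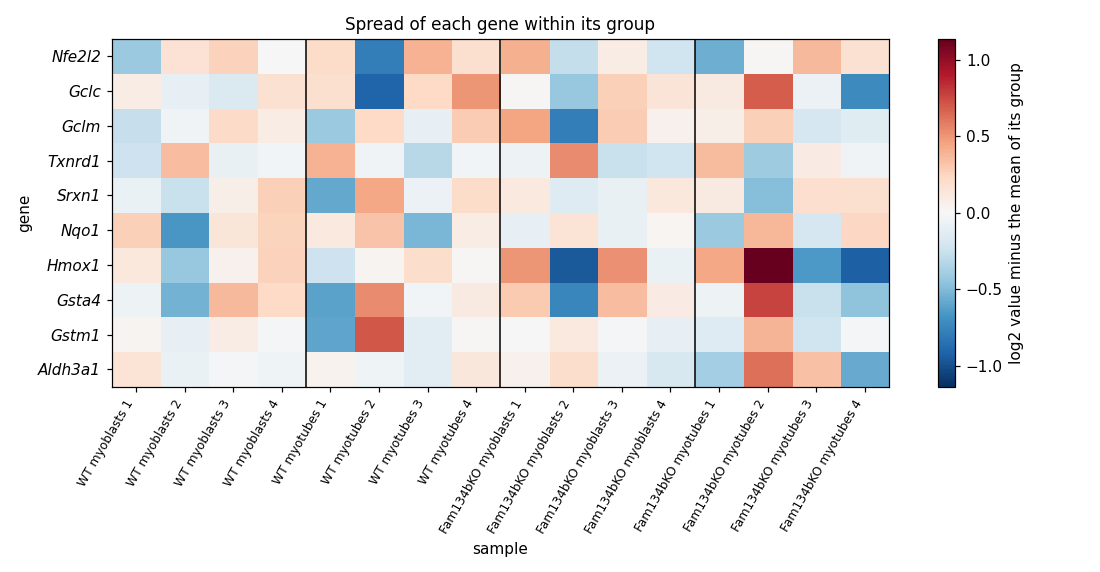
Log2 value minus the mean of its group (color) for the 10 genes (rows) in the 16 samples (columns), with lines between the groups. Hmox1, Gclm and Gsta4 are low together in Fam134bKO myoblasts 2, and Hmox1 spreads from -0.93 to 1.14 in Fam134bKO myotubes.

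The regulators of NRF2 were read beside it. Of 14 tested, Nfe2l1 and Sqstm1 were higher in Fam134bKO myoblasts and Bach1 and Mafk were lower. Each direction is 14.3% of the list, against 7.26% higher and 8.50% lower over all genes. In myotubes 14.3% were higher and 7.14% lower, against 9.74% and 13.7%. Bach1, which represses Hmox1 and other genes at antioxidant response elements, averaged 79.3 ± 18.9 in WT and 44.0 ± 11.6 in Fam134bKO myoblasts (SD, n = 4), without overlap. Its log2 fold change was -0.85 (adjusted p = 0.0152) in myoblasts and -1.21 (adjusted p = 0.000778) in myotubes. Sqstm1, the autophagy receptor that binds KEAP1, was at 1630 to 1924 in WT and 2522 to 2586 in Fam134bKO myoblasts. Its log2 fold change was 0.54 (adjusted p = 0.0270) in myoblasts and 0.84 (adjusted p = 0.000796) in myotubes. Nfe2l1, a relative of NRF2 that governs proteasome genes, had a log2 fold change of 1.12 (adjusted p = 0.000511) in myoblasts. Keap1 was at -0.29 (adjusted p = 0.315) in myoblasts and Cul3 and Mafg at 0.03 and -0.15, and none of the 3 passed in either stage. In myotubes Btrc, a subunit of another ligase that marks NRF2, was higher as well (0.70, adjusted p = 0.0313).

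Of 57 other genes of the pathway that were tested, regulators and further NRF2 targets of a list of 77, 18 were higher and 3 lower in Fam134bKO myoblasts, a share of 31.6% and 5.26% against the 7.26% and 8.50% of all genes. The median log2 fold change was 0.29. In myotubes 16 were higher and 4 lower, 28.1% and 7.02% against 9.74% and 13.7% of all genes, with a median of 0.25. These lists were written with results of these data known, so the counts describe the lists. From WT myoblasts to WT myotubes 5 rose and 10 fell, 8.77% and 17.5% against 13.8% and 9.16% of all genes. In Fam134bKO cells 6 rose and 14 fell, 10.5% and 24.6% against 17.3% and 16.1%. In the interaction 0 were higher and 3 lower, 0% and 5.26% against 1.97% and 1.48% of all genes.

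**Figure D5:**
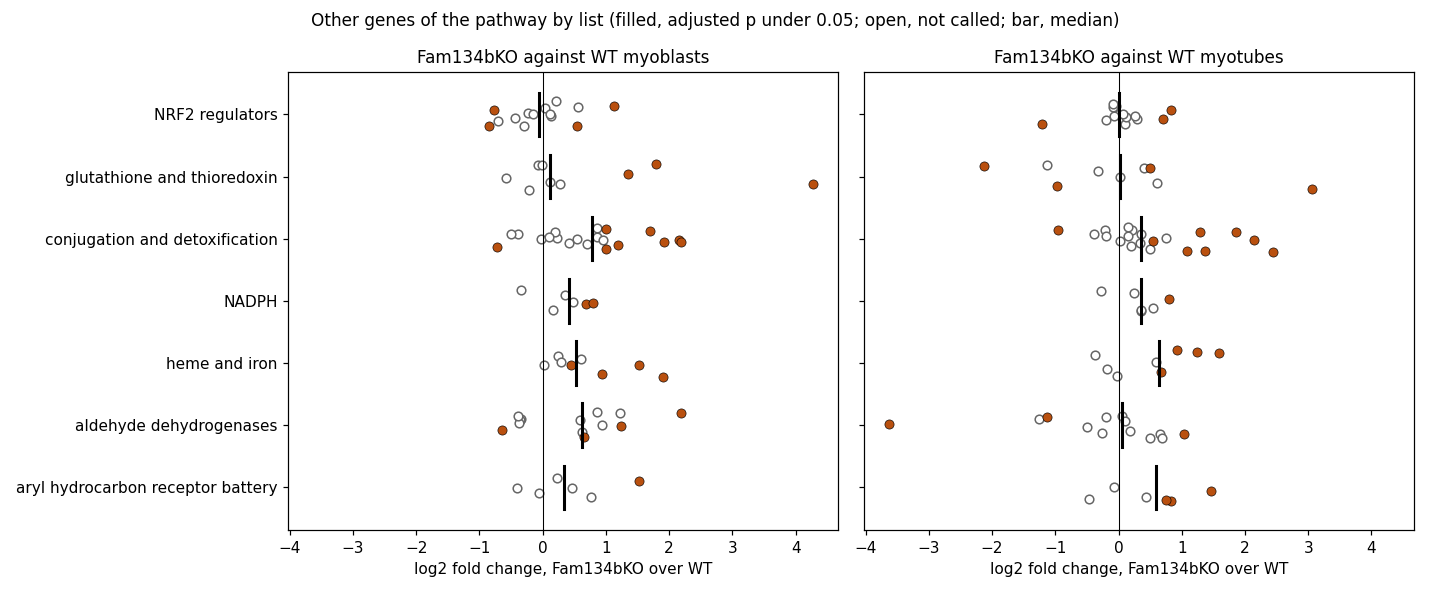
Log2 fold change of Fam134bKO over WT (horizontal axes) for the tested genes of 7 lists (rows), in myoblasts (left) and in myotubes (right); filled points have an adjusted p under 0.05, open points do not, and bars are medians. Among the conjugation and detoxification genes 7 of 20 are called higher and 1 lower at each stage.

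Among the glutathione and thioredoxin genes 3 of 9 were higher in Fam134bKO myoblasts, or 33.3% against 7.26% of all genes. Mgst1, a membrane-bound transferase of the endoplasmic reticulum and mitochondria, was at 4.46 to 16.4 in WT and 169 to 198 in Fam134bKO myoblasts, a log2 fold change of 4.27 (adjusted p = 1.38e-08) that rests on 5 to 17 reads per WT sample. Slc7a11 (1.79, adjusted p = 0.00586) and Slc3a2 (1.34, adjusted p = 0.000237), the 2 chains of the cystine importer that feeds glutathione synthesis, were higher too. In myotubes Mgst1 was higher as well (3.06), while Mgst2 (-2.13) and thioredoxin, Txn1 (-0.98, adjusted p = 0.00391), were lower. Glutathione reductase, Gsr, fell with differentiation in Fam134bKO cells (-1.87, adjusted p = 0.00249), and Fam134bKO myoblasts 2 was at 47.3 against 80.1 to 123 in the other 3.

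Conjugation and detoxification genes gave 7 higher and 1 lower of 20 in myoblasts, with a median of 0.78. Ephx1, an epoxide hydrolase, had a log2 fold change of 2.19 (adjusted p = 1.22e-05) in myoblasts and 2.45 (adjusted p = 6.01e-06) in myotubes. The aldehyde oxidase Aox1 was at 2.15 and 1.85, on 4 to 12 reads per WT myoblast sample. Gstm2, the closest listed relative of Gstm1, was at 1.92 and 2.14. Its samples ran from 82.0 to 92.1 in WT and from 320 to 352 in Fam134bKO myoblasts, and 15.3% of its transcript ends are shared with other genes. Gstm5 was at 1.00 (adjusted p = 0.00186) and 1.08 (adjusted p = 0.000885), with 0% of its ends shared. Osgin1, an oxidative stress-induced growth inhibitor, was at 1.20 (adjusted p = 0.00136) in myoblasts. Gstt1, a theta-class transferase, was at 1.70 (adjusted p = 0.0193) in myoblasts, on 3 to 12 reads per WT sample, and the alcohol dehydrogenase Adh7 at 1.00 (adjusted p = 0.00696). The gene called lower in myoblasts was the carbonyl reductase Cbr1 (-0.73, adjusted p = 0.0439). In myotubes the exporter Abcc4 (1.37, adjusted p = 0.0140) and the carbonyl reductase Cbr3 (1.29, adjusted p = 0.00369) were higher, and the gene called lower was the quinone reductase Nqo2 (-0.96, adjusted p = 0.00790). Gsta3 stayed under the filter on low counts, with at most 8 reads in any sample.

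Of 6 genes that supply NADPH, Pgd (0.80, adjusted p = 0.00266) and G6pdx (0.68, adjusted p = 0.00512), both of the pentose phosphate pathway, were higher in Fam134bKO myoblasts, and Me1 (0.80, adjusted p = 0.000321) in Fam134bKO myotubes. The share higher was 33.3% in myoblasts and 16.7% in myotubes, against 7.26% and 9.74% of all genes. Of the transcript ends of Me1 34.9% also occur in other genes, and of those of G6pdx 15.9%. All 8 heme and iron genes had positive log2 fold changes in myoblasts, and 4 were called, or 50.0% against 7.26% of all genes. Among the 4 were the iron exporter Slc40a1 (1.90, adjusted p = 5.62e-07) and the biliverdin reductase Blvrb (1.53, adjusted p = 2.07e-05). The others were the heme transporter Slc48a1 (0.93, adjusted p = 0.00243) and Fech (0.45, adjusted p = 0.0470), which inserts iron into protoporphyrin to make heme. In myotubes Slc40a1 (1.59) and Slc48a1 (1.25) were called again, with ferritin heavy chain, Fth1 (0.92, adjusted p = 0.0109), and Hmox2 (0.68, adjusted p = 0.00586). Ferritin light chain, Ftl1, fell with differentiation in WT (-1.99, adjusted p = 0.00051) and Fam134bKO cells (-2.45, adjusted p = 2.56e-05), with 83.0% of its transcript ends shared with other genes.

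Aldh3a1 was also set beside its family and its receptor battery. Of 13 other aldehyde dehydrogenases tested, 3 were higher and 1 lower in Fam134bKO myoblasts, and 1 higher and 2 lower in Fam134bKO myotubes. These are 23.1% and 7.69% in myoblasts, against 7.26% and 8.50% of all genes. In myotubes they are 7.69% and 15.4%, near the 9.74% and 13.7% of all genes. Aldh1l2, a mitochondrial enzyme of folate metabolism, was at 2.19 (adjusted p = 5.74e-08) in myoblasts, and its interaction was -2.13 (adjusted p = 7.80e-05). Aldh9a1 was at 1.24 (adjusted p = 0.000218) and Aldh3a2 at 0.65 (adjusted p = 0.0286). In myotubes Aldh2, the mitochondrial acetaldehyde enzyme, was at 1.04 (adjusted p = 0.000884) and Aldh3b1 at -1.13 (adjusted p = 2.26e-05). Aldh3b3, counted among the 2 lower, was at 10.9 to 35.4 in WT myotubes and listed at 0 in 3 of 4 Fam134bKO myotube samples. Its log2 fold change was -3.63 there and 3.81 from WT myoblasts to WT myotubes. The 4 WT myotube samples alone meet the filter of a normalized count of 10 in 4 samples. Its call is therefore a description, since the gene was tested through the group where it is high. Of 6 genes of the aryl hydrocarbon receptor battery, Cyp1b1 was higher in Fam134bKO myoblasts (1.52, adjusted p = 1.97e-05), and in myotubes Ahrr (1.46, adjusted p = 0.00566), Ahr (0.84, adjusted p = 0.0296) and Cyp1b1 (0.75, adjusted p = 0.0145) were higher. The share higher was 16.7% in myoblasts and 50.0% in myotubes, against 7.26% and 9.74% of all genes.

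Aldh3a1 lies on chromosome 11 at 61207537 to 61218421 (GRCm38, plus strand), and its tested neighbours are given for myotubes. Aldh3a2, 5.00 kb away, had a log2 fold change of 0.11 (adjusted p = 0.743) between Fam134bKO and WT myotubes, with 81.0 to 141 in WT and 95.4 to 159 in Fam134bKO. Usp22, 32.5 kb away on the other side, was at 0.29 (adjusted p = 0.184). Farther out, at 255 to 287 kb, Map2k3 was at -0.21 and Map2k3os at -1.96 (adjusted p = 0.0115), and Mapk7 (0.79, adjusted p = 0.0153) and B9d1 (0.71, adjusted p = 0.0349) were higher. The gene is annotated as protein coding and no other annotated gene overlaps it, and 0% of the 31-base stretches at its transcript ends occur elsewhere. Txnrd1 overlaps 3 annotated genes, Gclm 2 and Nfe2l2 1, 9.18% of the transcript ends of Gclm occur in another gene, and whether counting used the strand is not given in the sources used here.

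The genes whose log2 values followed Aldh3a1 most closely over the 16 samples were Rnd3 (r = 0.949), Rab11fip5 (r = 0.935), Adh1 (r = 0.934), Pnrc1 (r = 0.930) and Atl3 (r = 0.929). Rnd3 averaged 32.5 in WT myoblasts, 33.4 in WT myotubes, 68.4 in Fam134bKO myoblasts and 173 in Fam134bKO myotubes. Adh1, an alcohol dehydrogenase, was listed at 0 in WT myoblasts and averaged 1.37, 14.8 and 95.5 in the other groups in that order. These correlations include the differences between the groups. On deviations from the group means r was 0.423 for Rnd3, 0.121 for Rab11fip5, -0.270 for Adh1 and 0.134 for Atl3, but 0.760 for Pnrc1. Nqo1 was followed most closely by Atg4b (r = 0.914), Krt14 (r = 0.899) and Pgd (r = 0.899), Hmox1 by Anapc2, Ebf1 and Wbp11 (r = 0.910 to 0.930), and Gclm by Haus1, Actg1 and Ahcy (r = 0.924 to 0.947). On deviations from the group means r was 0.740 for Atg4b, 0.400 for Krt14 and 0.481 for Pgd. It was 0.863 to 0.906 for the genes named with Hmox1 and 0.770 to 0.849 for those named with Gclm.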

How the data were processed

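Reads from a commercial digital mRNA-seq service were, according to the study's methods, trimmed and cleaned with bbduk, aligned with STAR 2.6.0a and counted per gene with HTSeq, to mm10 by the submitters' processing notes. The table holds log2 values, made by the authors from each count divided by a factor of its sample and raised by 1. This was read from the values, which give whole reads within 0.01 of a read. The reads so recovered were used only for depth and floors. Floors from reads cover counting error only.

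Samples were grouped by their titles, because the genotype field lists unknown. Of 31053 genes, 10767 reached a normalized count of 10 in 4 or more samples and were fitted with limma 3.58.1 in R 4.3.3 (lmFit, contrasts.fit, eBayes with a trend, 4 group means, no covariates) with calls at an adjusted p under 0.05 (Benjamini-Hochberg, over all of them). The procedure was tested on simulated data.

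The 10 genes and the gene lists were chosen with earlier results of these data known. List genes were named where called and among the 5 largest changes of their list, fully for Fam134bKO against WT and in part for the other comparisons, with fixed regulators, relatives, neighbours and the genes of highest correlation. Adh7, Cbr1 and Nqo2 were named after their values were seen. The study's titles number the replicates without saying what a number shares, and deviations of same-numbered samples correlated at -0.223 to 0.369, so they were not taken as pairs. Replicates differed beyond sampling noise in every pair. Alternatives were other pseudocounts, filters, scalings, a replicate block, only the samples compared, sample weights, a stricter threshold and each sample left out. The fit without the 2 shallowest samples was chosen after seeing the data. Promoter windows come from RefSeq, gene positions from GENCODE M21.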

Additional observations from a re-analysis of the deposited data

Results flagged for a closer look

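Of 40 sets of 4 samples, 1 for each gene and group, 2 held a sample apart from the other 3, where the gap to the nearest sample divided by the range, both on log2 values, passed Dixon's critical value of 0.830. Chance alone sets apart a sample in about 1 in 20 such sets. Nqo1 in WT myoblasts 2 was at 53.0, against 93.1 to 102 in the other 3, with a ratio of 0.854 on log2 values. Srxn1 in Fam134bKO myotubes 2 was at 172, against 258 to 274 in the other 3, with a ratio of 0.872, and this is 1 of the 2 shallowest samples.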

How the results depend on the processing

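The log2 fold change of Aldh3a1 between Fam134bKO and WT myoblasts passed the test under all 28 other settings, from 1.24 to 1.37 with each sample left out and 1.23 at the lowest, with a pseudocount of 5. The counts of the 10 genes for that comparison (5 to 7) and of the 9 genes for differentiation in Fam134bKO cells (6 or 7) moved by less than 1.5 times. With sample weights, the 9 genes gave 5 calls between WT myotubes and WT myoblasts and 2 in the interaction, and the other pathway genes gave 30 calls in WT differentiation and 37 in myoblasts, against 15 and 21. Calls over all genes rose too, from 2474 to 4683 in WT differentiation and from 1697 to 3773 in myoblasts. In the interaction they rose from 371 to 1221. At an adjusted p under 0.01, calls were 1 for the 9 genes in WT differentiation, and 6 and 13 for the other pathway genes in WT and Fam134bKO differentiation. Of all genes, 1269 and 2216 were then called in these comparisons, against 2474 and 3591. Without the 2 shallowest samples, the 9 genes gave 5 in WT differentiation and 1 in the interaction. All genes gave 3260 and 394. With each sample left out, the 9 genes gave 1 to 5 in WT differentiation and 0 to 1 in the interaction, and the other pathway genes 7 to 19 in WT differentiation, 15 to 21 in Fam134bKO differentiation, 16 to 24 in myoblasts and 17 to 22 in myotubes; the cause was not tested. With the replicate number as a replicate block, the counts were 3 for WT differentiation, 7 for Fam134bKO differentiation, 6 for myoblasts and 0 for the interaction, Aldh3a1 kept its 1.31 (adjusted p = 0.000456), and the block changed no call of these genes in those comparisons; 7 of 16 samples correlated best with their own number.

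Values near 0 changed sign. With each sample left out, WT differentiation ran from -0.36 to 0.049 for Nfe2l2, -0.17 to 0.30 for Gclc, -0.24 to 0.0085 for Txnrd1 and -0.044 to 0.19 for Hmox1, Gclm in myoblasts from -0.13 to 0.28, and the Gstm1 interaction from -0.40 to 0.040. Likewise Keap1 ran from -0.15 to 0.088, Mafg from -0.042 to 0.16 and Aldh3a2 from -0.040 to 0.23 in myotubes, and Cul3 from -0.030 to 0.12 in myoblasts. Gclc in WT differentiation was 0.27 with sample weights. Without the 2 shallowest samples, Cul3 was 0.13, Mafg -0.0090 and Aldh3a2 -0.11 in myotubes. None of these passed the test. Between Fam134bKO and WT myotubes, given as a description, Hmox1 ran from -0.50 to 0.19 with each sample left out. Nfe2l2 ran from -0.34 to 0.10 and Gclc from -0.38 to 0.17 there. Depth limits the low genes: 3 reads are a normalized count of 2.49 to 5.99. The WT myoblast values of Mgst1, Aox1, Gstt1, Txnip and Sod3 reach down to this range.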

Other observations

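Antioxidant enzymes outside the NRF2 lists gave 5 genes higher and 1 lower of 20 tested in Fam134bKO against WT myoblasts, and 3 higher and 2 lower in myotubes. Sod3, the secreted superoxide dismutase, was at 2.77 to 7.01 in WT myoblasts, on 3 to 7 reads per sample, and at 40.0 to 62.1 in Fam134bKO myoblasts, a log2 fold change of 3.21 (limma, adjusted p = 1.46e-08). In myotubes it was at 21.8 to 34.5 in WT and 229 to 379 in Fam134bKO, a log2 fold change of 3.52 (adjusted p = 1.97e-08). Txnip, an inhibitor of thioredoxin, had a log2 fold change of 3.20 (adjusted p = 0.000104) in myoblasts, on 4 to 11 reads per WT sample. Txnrd3 (1.05, adjusted p = 0.00755) and Prdx4 (0.71, adjusted p = 0.0448) were higher in myoblasts as well. Gpx3, a secreted glutathione peroxidase, went the other way, with 13.8 to 23.0 in WT myoblasts and at most 3 reads in any Fam134bKO myoblast sample. In myotubes Gpx3 was at -1.58 (adjusted p = 0.00352) and Gpx4, with 64.0% of its transcript ends shared, at -1.13 (adjusted p = 0.0333). Catalase, Cat, was higher in Fam134bKO myoblasts (0.65, adjusted p = 0.0423) and myotubes (0.86, adjusted p = 0.00620), and Gpx1 in myotubes (0.62, adjusted p = 0.0162).

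Of 8 tested glutathione S-transferases, the members Gsta4 and Gstm1 not counted, 3 were higher in Fam134bKO myoblasts and none lower, and 5 fell with differentiation in Fam134bKO cells and 3 in WT cells. The share higher was 37.5%, against 7.26% of all genes. The shares that fell were 62.5% and 37.5%, against 16.1% and 9.16%. Gstk1, a mitochondrial form, fell in both (log2 fold change -1.80, adjusted p = 0.00266, and -1.44, adjusted p = 0.0189), as did Gsto1 (-0.87, adjusted p = 0.00371, and -1.27, adjusted p = 0.000221).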
